A study of Mus musculus with 35 samples.

Results

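Partial hepatectomy (PH) is the surgical removal of most of the liver, after which the remaining lobes grow back to about the former mass. The data described here compare liver of young mice 38 h after PH (3 arrays) with untreated liver of young mice (0 h, 3 arrays). These are 6 of the 35 arrays of the study, chosen by their labels alone, and they measure 18193 genes through sets of probes with 1 gene symbol. All mice of both groups were males of the CB6F1 hybrid strain, 5 to 6 months old, from Jackson Laboratories. Mice were anaesthetised with avertin and isoflurane for surgery, and PH took 70% of the liver mass. The untreated mice are labelled as having no treatment.

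The study also took liver of young mice 24 h and 48 h after PH (3 arrays each) and after sham surgery, in which the liver was handled and not resected (2 arrays at 24 h, 1 at 38 h and 2 at 48 h). The remaining arrays are of mice aged 25 to 27 months under the same treatments and enter only the estimate of each gene's spread. The single sham array at 38 h gives no estimate of its own spread, so the untreated livers are the control and the 5 young sham arrays are shown beside them. Untreated liver was not operated on, and the hour of the day of each collection is not given in the sources used here, so PH, surgery, anaesthesia and time of day cannot be told apart in PH against untreated liver. Nothing in the labels says that the replicates of a group are separate mice, so the p-values describe how far these samples spread, and part of that spread may be technical.

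Adult hepatocytes rest outside the cell cycle and re-enter it when liver mass is lost. They pass the G1 restriction point with cyclin D1, license and fire replication origins in S phase, and then condense and separate their chromosomes in mitosis. In mice the hepatocytes lead and the other liver cells follow, and the remaining tissue keeps making plasma proteins, bile acids and glucose while it grows. Surgery is known to set off an acute phase response, in which hepatocytes secrete host defence proteins under the control of cytokines.

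Values are log2 RMA signals, deposited by the authors, in which 1 unit is a 2-fold difference. Changes are the mean at 38 h after PH minus the mean of untreated liver, ± the standard error of a limma fit over all arrays. A gene rose or fell where the Benjamini-Hochberg adjusted p of that fit was under 0.05 over 18193 genes. By that rule 5765 genes (31.7%) passed, of which 2766 (15.2%) rose and 2999 (16.5%) fell, and the median change of all genes was 0.00. The balance of rises and falls depended on scaling. With array medians centred 3529 genes rose and 2520 fell (median change 0.05). With quantile normalization repeated 3618 rose and 2198 fell (median change 0.06). Over 2-fold rises were seen in 396 genes and over 2-fold falls in 401, while over 4-fold rises (99) outnumbered over 4-fold falls (30). With about 3 in 10 of all genes past the threshold, the counts for a gene group below are read against these shares. All 3 PH arrays lay above all 3 untreated arrays in 4121 genes (22.7%) and below them in 4635 (25.5%). Lack of overlap in a gene below is read against these 2 shares. The 15 largest rises and falls named were taken among genes without overlap, so its absence there follows from the choice. Each gene is represented by 1 probe set, the one with the highest mean signal, and 107 of 196 named genes have more than 1. Values of other probe sets come from the fit of every probe set, where another one passed in the opposite direction for 14 members of the gene lists (Acta2, Bub1b, Cd4, Cdc16, Cycs, Nek2, Polr1a, Prim2, Rad54l, Rxra, Sesn1, Skp2, Tubb6 and Wapl). Where a count in a gene list is 5 or fewer, its members are named, with their change where untreated liver is the control and PH replicates are separate, and those outside the rule for named genes were chosen after their values were seen.

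The 3 arrays at 38 h were not equally close to each other. Replicates 1 and 2 were over 2-fold apart in 2 of 18193 genes, while the other 28 pairs of arrays within a group were that far apart in 18 to 1699 genes, and in 18 to 178 genes in the young groups outside PH 38 h. Replicate 3 was over 2-fold above the mean of the other two in 93 genes and over 2-fold below it in 148. Arrays carry no counting noise against which sameness could be tested, so the 3 were kept as 3 samples, as labelled. With replicates 1 and 2 averaged to 1 sample, 4521 genes passed (24.9%), of which 2170 rose (11.9%) and 2351 fell (12.9%).

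Sham arrays differed from untreated liver as well. In the same fit 1935 genes (10.6%) were higher and 2076 (11.4%) lower in the single 38 h sham array than in untreated liver. With the 5 young sham arrays pooled as the control, 1897 genes (10.4%) were higher and 1447 (7.95%) lower at 38 h after PH. Against the single 38 h sham array 836 genes (4.6%) were higher and 267 (1.47%) lower after PH, the latter 177 without PH 38 h replicate 2. In what follows, pooled sham means the mean of these 5 arrays, and the sham range runs from their lowest to their highest value.

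Albumin (Alb), the main hepatocyte secretory product, read 14.92, 14.89 and 14.92 in untreated liver and 14.87, 14.85 and 14.87 at 38 h, close to the highest value in the table (15.01). The change of -0.04 ± 0.05 did not pass. In bulk tissue, fewer cells of a type and less RNA per cell cannot be told apart, which holds for every gene below.

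Replication and mitosis genes made up most of the largest rises. The 4 replication lists (licensing, fork, nucleotides, histones) hold 83 measured genes, of which 72 matched a RefSeq promoter, and the 4 mitosis lists hold 94, of which 80 matched. The promoters of the 3 replication genes and the 5 mitosis genes with the largest rises are shown here because these genes moved together. Each sequence is the 150 bases before the annotated start from RefSeq (GRCm38.p6), read 5′ to 3′ on the gene's strand. Capitals mark the E2F motifs TTTCGCGC, TTTGGCGC and TTTCCCGC in the 3 replication genes and the cell cycle homology element (CHR) TTTGAA or TTCGAA in the 5 mitosis genes, searched on both strands.
Rrm2 (chr12:24708104-24708253, plus strand): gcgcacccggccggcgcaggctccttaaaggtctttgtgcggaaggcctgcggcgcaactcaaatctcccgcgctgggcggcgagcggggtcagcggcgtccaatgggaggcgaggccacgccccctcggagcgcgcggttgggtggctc
Mcm6 (chr1:128359706-128359855, minus strand): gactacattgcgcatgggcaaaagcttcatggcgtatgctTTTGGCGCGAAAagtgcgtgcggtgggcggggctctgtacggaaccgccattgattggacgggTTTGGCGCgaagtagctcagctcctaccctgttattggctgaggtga
Mcm5 (chr8:75109359-75109508, plus strand): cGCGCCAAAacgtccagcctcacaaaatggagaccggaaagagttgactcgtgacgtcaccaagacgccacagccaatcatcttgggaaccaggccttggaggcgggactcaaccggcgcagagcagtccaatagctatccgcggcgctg
Birc5 (chr11:117849087-117849236, plus strand): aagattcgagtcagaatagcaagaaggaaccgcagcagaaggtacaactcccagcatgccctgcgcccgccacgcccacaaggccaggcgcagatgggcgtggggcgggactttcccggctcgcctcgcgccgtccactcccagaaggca
Nuf2 (chr1:169531465-169531614, minus strand): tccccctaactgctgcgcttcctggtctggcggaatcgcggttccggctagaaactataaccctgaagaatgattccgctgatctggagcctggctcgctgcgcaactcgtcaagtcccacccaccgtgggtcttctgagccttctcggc
Mki67 (chr7:135716380-135716529, minus strand): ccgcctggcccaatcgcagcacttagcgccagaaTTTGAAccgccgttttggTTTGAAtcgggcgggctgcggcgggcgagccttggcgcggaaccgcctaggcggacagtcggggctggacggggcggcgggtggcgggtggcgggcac
Ube2c (chr2:164769779-164769928, plus strand): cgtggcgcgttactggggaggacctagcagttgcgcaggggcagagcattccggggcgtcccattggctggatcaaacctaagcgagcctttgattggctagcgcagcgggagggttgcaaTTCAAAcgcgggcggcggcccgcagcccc
Cdk1 (chr10:69352913-69353062, minus strand): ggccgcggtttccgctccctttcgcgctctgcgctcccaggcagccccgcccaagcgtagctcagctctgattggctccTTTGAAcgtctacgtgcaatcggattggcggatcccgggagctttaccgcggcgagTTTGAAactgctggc

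Mcm6 held 3 E2F matches, at -110, -106 and -47 from the start, and the first 2 overlap. Mcm5 held 1, at -149, and another match that overlaps it, TTTCGCGC at -153, starts just before the bases shown. Rrm2 held none of these letters in the window. CHR letters stood at -116 and -98 in Mki67, at -71 and -15 in Cdk1 and at -29 in Ube2c, and not in this window of Birc5 or Nuf2. The full window of the table is 300 bases (250 before to 50 after the start), and a gene counts where any of its promoters matches. Of the 72 replication genes with a promoter, 30.6% held an E2F motif, against 3.25% of the 14452 tested genes with one. The E2F share was 2.12% of all 27025 genes with a promoter and 10% of the mitosis genes. It differed by list: 50% in licensing, 36% in fork, 25% in histones and 5.26% in nucleotide synthesis. Among mitosis lists it was 27.8% in chromosome condensation and cohesion and from 0% to 6.67% in the others. The CHR was held by 58.8% of the 80 mitosis genes with a promoter and by 19.4% of the replication genes. It was held by 17.5% of the tested genes and 21.7% of all genes with a promoter. A match describes these letters and is not evidence of binding.

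Genes that license replication origins rose at 38 h. The helicase subunits Mcm2 to Mcm7 are loaded onto origins by Cdc6 and Cdt1. In the origin licensing list 16 of 25 measured members rose and 2 fell, with a median change of 1.41. Mcm6 read 7.74, 7.63 and 7.59 in untreated liver, 7.35 to 7.82 in the sham range and 11.61, 11.49 and 11.76 at 38 h. The 38 h arrays lay far above all untreated and sham arrays, and the rise was 3.97 ± 0.52 (15.6-fold, limma adjusted p = 4.00e-06). Its partner Mcm5 rose by 3.96 ± 0.55 (limma adjusted p = 8.50e-06), from 7.38, 7.03 and 7.65 to 11.26, 11.17 and 11.51. The loading factor gene Cdc6 was near the lower end of the scale in untreated liver, at 4.79, 4.88 and 4.68, and read 8.14, 8.21 and 7.85 at 38 h, a rise of 3.28 ± 0.38. Mcm4 rose by 2.64 ± 0.33, and the other helicase genes Mcm2 (2.19), Mcm3 (2.42) and Mcm7 (2.29), named after their values were seen, rose as well. Mcm10 (-1.83 ± 0.44) and the origin recognition gene Orc4 (-0.40 ± 0.14) were the 2 members that fell, also named after their values were seen. Mcm10 read 12.21, 11.997 and 12.11 in untreated liver, 10.17, 10.01 and 10.65 at 38 h and 10.89 to 11.41 in the sham range, so the sham arrays lay between the PH and the untreated arrays. In 4 members, among them Cdc45 and Orc1, a dimmer probe set rose where the one used did not pass. In this list, 16 were higher and 0 lower (1 at an unadjusted p under 0.05) against the pooled sham (median 1.53). The call was lost against the pooled sham for Mcm10 and Orc4.

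Nearly the whole replication fork list rose: 26 of 29 measured members rose and 0 fell (0 at an unadjusted p under 0.05), with a median change of 1.26. Pcna, the sliding clamp that holds DNA polymerase on its template, read 10.76, 10.92 and 10.68 in untreated liver and 13.02, 13.04 and 13.35 at 38 h, with the sham range at 10.53 to 10.64. The groups did not overlap, and the rise was 2.35 ± 0.23 (5.10-fold, limma adjusted p = 1.81e-07). The primase gene Prim1 rose by 2.63 ± 0.44, the clamp loader gene Rfc4 by 2.31 ± 0.27 and Uhrf1, which guides maintenance of DNA methylation behind the fork, by 2.52 ± 0.25. Dna2, Rfc1 and Pold2 were the 3 members that did not pass, at -0.10, 0.32 and 0.39, named after their values were seen, and a dimmer set of Dna2 rose (0.40 ± 0.10). Beside the pooled sham 27 of 29 members were higher and 0 lower (0 at an unadjusted p under 0.05).

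Rises among nucleotide synthesis genes were limited to part of the list. In the nucleotide synthesis list 10 of 20 measured members rose and 0 fell (0 at an unadjusted p under 0.05), with a median change of 0.30. Rrm2, the regulated subunit of ribonucleotide reductase, which makes deoxyribonucleotides, had the largest rise of the replication genes. It read 8.04, 7.69 and 7.52 in untreated liver and 11.72, 11.68 and 12.19 at 38 h. The sham range of 6.03 to 7.25 lay below every untreated array, so the rise was 4.11 ± 0.53 against untreated liver and 5.27 ± 0.48 against the pooled sham. The partner subunit Rrm1 rose by 2.30 ± 0.28, deoxycytidine kinase (Dck) by 1.99 ± 0.39 and dUTPase (Dut), which keeps uracil out of DNA, by 1.78 ± 0.26. The purine pathway genes Ppat (-0.18), Paics (-0.07) and Gmps (-0.07) and the pyrimidine gene Cad (-0.03), named after their values were seen, did not pass, although 2 dimmer sets of Gmps fell (-1.56 ± 0.16 and -0.57 ± 0.09).

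Chromatin assembly and fork repair genes rose with the fork. In the S phase histones and chromatin assembly list 7 of 9 measured members rose and 0 fell (0 at an unadjusted p under 0.05), with a median change of 1.43. The list has 18 members, so many were not measured, and the histone genes named here are variants. The centromeric histone gene Cenpa rose by 2.57 ± 0.41, the variant histone genes H2az1 by 1.78 ± 0.28 and H2ax by 1.61 ± 0.29, and the chromatin assembly factor subunit Chaf1b by 1.75 ± 0.20. Near-identical histone gene copies may share signal between their probes. In the list of homologous recombination and fork repair, 19 of 25 measured members rose and 0 fell (0 at an unadjusted p under 0.05), with a median change of 0.66. The cohesin acetyltransferase gene Esco2 led it, reading 4.49, 4.50 and 4.80 in untreated liver and 8.25, 8.23 and 9.89 at 38 h. Its rise of 4.19 ± 0.53 (limma adjusted p = 2.59e-06) was largest in replicate 3, and no PH array overlapped an untreated or sham array. Brca1 rose by 2.21 ± 0.30 and the checkpoint kinase gene Chek1 by 2.01 ± 0.29.

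Cyclins of G1 and S phase rose. In the G1 and S phase cyclins, CDKs and pocket proteins list 17 of 27 measured members rose and 3 fell, with a median change of 0.58. Cyclin D1 (Ccnd1), which couples growth signals to the cell cycle, read 9.71, 9.40 and 9.19 in untreated liver and 12.05, 11.99 and 11.80 at 38 h, above the sham range of 9.05 to 9.32. The rise was 2.51 ± 0.48 (5.71-fold, limma adjusted p = 0.000316), and its differences of 0.95 ± 0.48 from 24 h and 0.12 ± 0.48 from 38 h to 48 h did not pass. Cyclin E2 (Ccne2), which drives entry into S phase, rose by 3.27 ± 0.35, from 5.38, 5.11 and 5.24 to 8.65, 8.33 and 8.58. It was higher at 38 h than at 24 h by 1.71 ± 0.35 (limma adjusted p = 0.00628) and then lower at 48 h by 2.39 ± 0.35 (limma adjusted p = 0.000965). Cyclin E1 (Ccne1) rose by 2.25 ± 0.20 against untreated liver and by 1.33 ± 0.18 against the pooled sham, as its sham range of 8.43 to 9.11 lay above the untreated arrays (7.83, 8.03 and 7.56). Cyclin A2 (Ccna2), which acts in S phase and G2, rose by 2.26 ± 0.36, with replicate 3 at 10.63 and the other arrays at 9.56 and 9.38. Of the transcription factors that drive S phase genes, E2f1 (1.46), E2f7 (0.96) and E2f8 (1.64) rose, and E2f3 (-0.23) and E2f4 (0.08) did not pass. The pocket protein genes went apart: Rbl1 rose by 2.31 ± 0.40, while Rbl2 (-1.68 ± 0.23) and Rb1 (-0.37 ± 0.12) fell, as did the probe set used for the ubiquitin ligase gene Skp2 (-0.25 ± 0.09). Of the other probe sets of Skp2, 3 rose (1.03 ± 0.21, 1.29 ± 0.21 and 0.73 ± 0.15), so its direction is not settled. The E2F genes, Rbl2, Rb1 and Skp2 were named after their values were seen. Beside the shams, 18 were higher and 1 lower (Rbl2) in this list (median 0.73 against the pooled sham). No pass against the pooled sham was seen for Skp2.

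Some inhibitors of cyclin-dependent kinases (CDKs) rose alongside the cyclins. In the CDK inhibitors and p53 targets list 6 of 22 measured members rose and 2 fell (Cdkn1c -0.42 and Sesn1 -0.79), with a median change of 0.25. Cdkn1a, which encodes the p53 target p21, read 9.87, 10.19 and 9.66 in untreated liver, 8.33 to 8.91 in the sham range and 11.76, 11.75 and 11.46 at 38 h. The sham arrays lay below the untreated ones, so the rise was 1.75 ± 0.41 against untreated liver (limma adjusted p = 0.00194) and 3.04 ± 0.35 against the pooled sham. The INK4 inhibitor genes Cdkn2c and Cdkn2d rose by 2.25 ± 0.38 and 1.41 ± 0.25, and the p53 target Eda2r by 0.89 ± 0.17. With the pooled sham as control 14 of 22 members were higher and 1 lower (Sesn1). Against the pooled sham the threshold was missed by Cdkn1c.

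**Figure D1:**
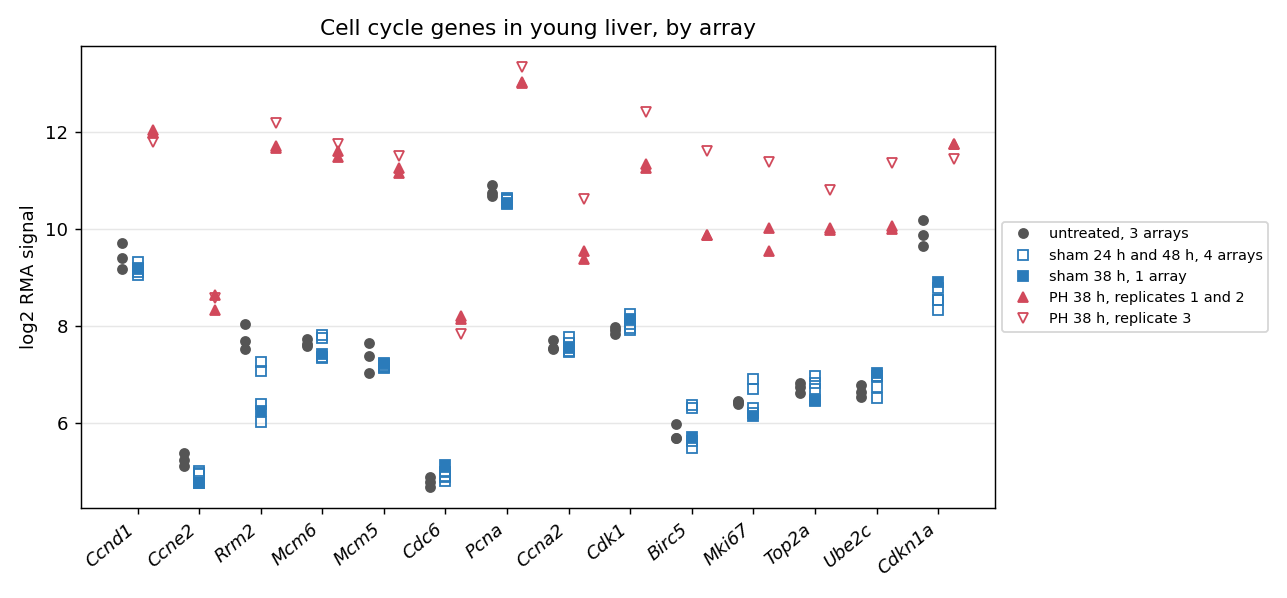
Log2 RMA signal (vertical axis) of 14 cell cycle genes in each array of young liver: untreated (circles, 3 arrays), sham (squares, filled for 38 h, 5 arrays) and 38 h after PH (triangles, replicate 3 open). All 3 PH arrays lie above the untreated and sham arrays for each gene shown, and replicate 3 is the highest for Birc5 (11.62) and Ube2c (11.37).

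Genes of mitotic entry rose nearly throughout. In the mitotic kinases and entry list 19 of 21 measured members rose and 0 fell (0 at an unadjusted p under 0.05), with a median change of 1.70. Cdk1, the kinase that starts mitosis, read 7.83, 7.91 and 7.98 in untreated liver, 7.91 to 8.24 in the sham range and 11.27, 11.36 and 12.43 at 38 h. All PH arrays lay above the rest, with replicate 3 the highest, and the rise was 3.77 ± 0.45 (13.7-fold, limma adjusted p = 1.25e-06). The chromosome passenger kinase gene Aurkb rose by 3.30 ± 0.37, the mitotic kinase gene Pbk by 3.62 ± 0.43 and the spindle checkpoint kinase gene Ttk by 2.96 ± 0.27. Cyclin B2 (Ccnb2), a partner of Cdk1, rose by 2.23 ± 0.45, from 7.03, 7.11 and 6.90 to 8.86, 8.68 and 10.20. Foxm1, a transcription factor of G2 and mitosis genes, was at 0.28 ± 0.13 and did not pass (limma adjusted p = 0.0918), with untreated arrays at 8.67, 8.83 and 8.77 and PH arrays at 8.93, 8.85 and 9.34. It passed against the pooled sham (0.41 ± 0.11). The probe sets of Foxm1 did not share a direction, as 2 dimmer ones rose (0.56 ± 0.14 and 1.51 ± 0.27) and the dimmest fell (-0.27 ± 0.08).

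Genes of the spindle, kinetochore and cytokinesis had the highest median of all lists: 32 of 35 measured members rose and 0 fell (0 at an unadjusted p under 0.05), with a median change of 1.84. Survivin (Birc5), a chromosome passenger protein, read 5.99, 5.68 and 5.69 in untreated liver, 5.48 to 6.37 in the sham range and 9.88, 9.89 and 11.62 at 38 h. It rose by 4.68 ± 0.65 (limma adjusted p = 8.90e-06), and replicate 3 stood well above replicates 1 and 2. The kinetochore gene Nuf2 rose by 4.02 ± 0.39, from 4.76, 4.89 and 4.98 to 8.17, 8.73 and 9.79. Anln and Ect2, which act in the contractile ring of cytokinesis, rose by 3.44 ± 0.38 and 3.42 ± 0.43. The 3 members that did not pass, Cenpk (0.22), Tpx2 (0.19) and Kif2c (0.27), named after their values were seen, each had a dimmer probe set that rose, by 2.58 ± 0.30 for Cenpk, 1.84 ± 0.26 for Tpx2 and 3.46 ± 0.46 for Kif2c.

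In chromosome condensation and cohesion, 14 of 21 measured members rose and 3 fell, with a median change of 1.40. Mki67, the proliferation antigen that coats mitotic chromosomes, read 6.43, 6.39 and 6.46 in untreated liver and 10.03, 9.54 and 11.38 at 38 h. The groups were wide apart, and the rise was 3.89 ± 0.59 (limma adjusted p = 2.43e-05). Topoisomerase II alpha (Top2a), which untangles replicated DNA, rose by 3.55 ± 0.51, and the condensin subunit genes Smc2 and Ncapg2 rose by 3.06 ± 0.46 and 3.13 ± 0.35. The 3 members that fell, named after their values were seen, belong to cohesin or its release factor: Wapl (-1.03 ± 0.14), Stag2 (-1.02 ± 0.13) and Smc3 (-0.41 ± 0.13). Against the pooled sham 15 of 21 members were higher and 0 lower (0 at an unadjusted p under 0.05). Of the anaphase-promoting complex (APC/C) and its partners, 7 of 18 measured members rose and 0 fell (3 at an unadjusted p under 0.05), with a median change of 0.25. The ubiquitin-conjugating enzyme genes of this complex, Ube2c (3.82 ± 0.57) and Ube2s (1.65 ± 0.24), its activator gene Cdc20 (2.17 ± 0.40) and its inhibitor gene Fbxo5 (1.47 ± 0.22) rose. With the pooled sham as control Wapl, Stag2 and Smc3 did not pass.

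Livers at 24 h and 48 h after PH frame these levels. From 24 h to 38 h after PH, 366 genes (2.01%) rose and 152 (0.835%) fell, and from 38 h to 48 h, 190 (1.04%) rose and 40 (0.22%) fell. In the spindle list 30 of 35 members rose from 24 h to 38 h, as did 16 of 21 mitotic kinase members and 20 of 29 fork members, and none of these lists had a member that fell. Nuf2 was higher at 38 h than at 24 h by 3.38 ± 0.39 (limma adjusted p = 4.46e-05) and Pcna by 1.20 ± 0.23 (limma adjusted p = 0.00428), while Mcm6 (1.31 ± 0.52) and Mcm5 (1.59 ± 0.55) did not pass. After 38 h, Ccnb2 rose further by 2.07 ± 0.45 (limma adjusted p = 0.0220) and Cdc20 by 1.92 ± 0.40 (limma adjusted p = 0.0165). Cdc6 fell by 1.61 ± 0.38 (limma adjusted p = 0.0299), Chaf1b by 0.79 ± 0.20 (limma adjusted p = 0.0473) and Ccne1 by 0.93 ± 0.20 (limma adjusted p = 0.0208). These counts moved with single arrays: the 24 h comparison gave 234 to 423 genes and the 48 h comparison 28 to 353 genes when 1 array was left out, the lowest without PH 24 h replicate 3 and without PH 48 h replicate 1. The 24 h comparison also moved over 1.5 times without PH 38 h replicate 2 (339 genes), and the 48 h comparison without PH 38 h replicate 1 (54), 2 (44) or 3 (353) and without PH 48 h replicate 3 (124).

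Replicate 3 was higher than replicates 1 and 2 in the mitotic lists. The score of a list, the mean log2 level of its members minus that of untreated liver, was 1.60, 1.52 and 2.41 for mitotic kinases in replicates 1, 2 and 3, against 0.62, 0.51 and 0.27 at 24 h and 2.40, 2.14 and 2.49 at 48 h. Replicate 3 lay within the range of the 48 h arrays and replicates 1 and 2 between 24 h and 48 h. For the fork list the scores were 1.16, 1.14 and 1.52 at 38 h and 0.97, 0.88 and 1.06 at 48 h. Sham scores ran from 0.09 to 0.17 for mitotic kinases and from -0.19 to -0.04 for the fork.

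**Figure D2:**
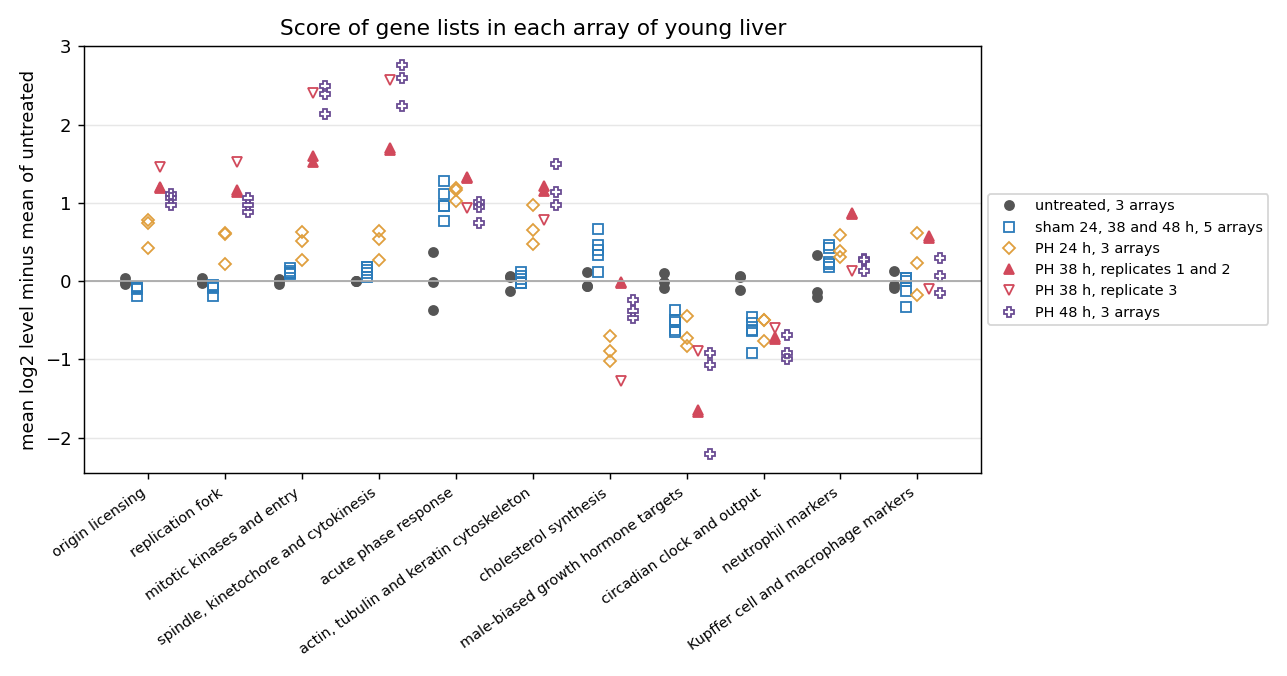
Score of 11 gene lists (vertical axis, mean log2 level of the members minus the mean of untreated liver) in each array of young liver, with PH 38 h replicate 3 drawn apart from replicates 1 and 2. The cell cycle scores separate PH from sham arrays, the acute phase and clock scores do not, and replicate 3 departs from the other 38 h arrays in mitosis and cholesterol synthesis.

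Cytoskeletal genes rose broadly. In the actin, tubulin and keratin cytoskeleton list 24 of 30 measured members rose and 0 fell (1 at an unadjusted p under 0.05), with a median change of 0.85. Stathmin (Stmn1), which destabilises microtubules, read 9.27, 9.63 and 9.31 in untreated liver, 9.28 to 9.78 in the sham range and 12.63, 12.58 and 13.56 at 38 h. The rise of 3.52 ± 0.54 (limma adjusted p = 2.78e-05) left no overlap between the groups. Beta tubulin 6 (Tubb6) rose by 2.13 ± 0.39 and annexin A2 (Anxa2) by 2.42 ± 0.61, with Anxa2 at 12.60 and 12.60 in replicates 1 and 2 and 10.57 in replicate 3. The calcium-binding protein gene S100a6 rose by 2.60 ± 0.60 against untreated liver, and its 1.31 ± 0.52 against the pooled sham did not pass. Beside the pooled sham 24 of 30 members were higher and 0 lower (1 at an unadjusted p under 0.05).

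Members of the glycolysis list, which also holds transporter and pentose phosphate genes (Tkt among them), rose by smaller amounts. Here 11 of 19 measured members rose and 1 fell (Tkt -0.50), with a median change of 0.34. The pyruvate kinase gene Pkm, the form of proliferating cells, read 7.63, 7.76 and 7.57 in untreated liver and 9.67, 9.74 and 8.29 at 38 h. The groups did not overlap, but replicate 3 lay much closer to untreated liver, and the rise was 1.58 ± 0.36. Aldoa rose by 0.88 ± 0.23, Tpi1 by 0.60 ± 0.17 and the glucose transporter gene Slc2a1 by 1.04 ± 0.31. The call for Slc2a1 was lost without untreated replicate 3 or PH replicate 2 (changes from 0.88 to 0.91). The call of Aldoa was lost with its probe sets averaged. Tpi1 lost its call with its set of largest variance. Of the genes named here, Tkt did not pass against the pooled sham.

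Few early response genes passed. These genes, such as Fos and Jun, are switched on within minutes of growth signals or stress. In the immediate early genes list 1 of 19 measured members rose and 1 fell, with a median change of 0.23. The list scored -0.22, 0.56 and -0.34 in untreated replicates 1, 2 and 3, so replicate 2 stood above the other untreated arrays. Fos read 7.87, 9.86 and 7.88 in untreated liver, 6.91 to 7.53 in the sham range and 10.76, 10.77 and 8.74 at 38 h. One untreated array lay above PH replicate 3, so the groups overlapped, and the rise of 1.56 ± 0.50 was lost without untreated replicates 1 or 3 or PH replicates 1 or 2 (changes from 1.22 to 1.23) and with PH replicates 1 and 2 averaged or only the 6 arrays compared. Jun read 9.95, 10.48 and 9.61 in untreated liver and 11.01, 11.18 and 8.72 at 38 h, a change of 0.29 ± 0.41 that did not pass, and Myc was at -0.59 ± 0.31 without passing. The phosphatase gene Dusp1 fell by 1.41 ± 0.53 against untreated liver, a call lost without untreated replicates 1, 2 or 3 or PH replicates 1, 2 or 3 (changes from -1.62 to -1.18) and with PH replicates 1 and 2 averaged, array medians centred or quantile normalization repeated, and its 1.29 ± 0.46 against the pooled sham had the other sign and did not pass. For Fos, Jun, Myc and Dusp1 all sham arrays were below all untreated arrays, and against the pooled sham 7 of 19 members were higher and 1 lower (Egr3).

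Growth factor and receptor genes gave few rises. In the growth factors and receptors of liver regeneration list 2 of 35 measured members rose (Igf2 0.26 and Tgfb1 0.78) and 8 fell, with a median change of 0.03. Hgf, the hepatocyte growth factor made by non-parenchymal cells, did not pass (0.13 ± 0.15), and its receptor gene Met fell by 0.55 ± 0.12. The receptor gene Egfr was at -1.40 ± 0.69 without passing, with untreated arrays at 13.11, 12.93 and 13.22 and PH arrays at 11.56, 11.41 and 12.09. Among its dimmer probe sets 4 fell (-0.80 ± 0.24, -1.26 ± 0.45, -1.66 ± 0.43 and -0.39 ± 0.10) and 1 rose (0.45 ± 0.11). Klb, a co-receptor for endocrine fibroblast growth factors, fell by 0.94 ± 0.28. Erbb3, an epidermal growth factor family receptor, fell by 1.12 ± 0.18 (limma adjusted p = 5.01e-05), from 11.26, 11.15 and 11.75 to 10.13, 10.10 and 10.56. The leukaemia inhibitory factor receptor gene Lifr fell by 2.42 ± 0.56, with PH arrays at 9.57, 9.55 and 11.21. Socs2, a growth hormone target that limits its signal, fell by 2.12 ± 0.54 against untreated liver (10.15, 9.71 and 10.45 against 8.51, 8.33 and 7.12). Its sham range was 7.22 to 8.57, so PH and sham arrays overlapped and the difference from the pooled sham was 0.14 ± 0.49. Igf1 was at -0.03 ± 0.08. Igfbp1, an early marker of regenerating liver, read 11.93, 14.15 and 11.52 in untreated liver and 13.06, 13.10 and 12.81 at 38 h, and its 0.46 ± 0.64 did not pass. Untreated replicate 2 was above all PH arrays. The sham range was 8.71 to 11.54, and the difference from the pooled sham, 3.20 ± 0.58, passed. Set against the pooled sham, 6 were higher and 3 lower (Erbb3, Lifr and Vegfa) in this list, with a median of 0.11. In this list, 0 rose (3 at an unadjusted p under 0.05) with PH replicates 1 and 2 averaged. The call of Klb was lost without PH replicate 2 (change -0.84). When set against the pooled sham, Met, Klb and Igf2 missed the threshold.

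More liver transcription factors fell than rose. In the liver transcription factors list 1 of 24 measured members rose and 9 fell, with a median change of -0.48. Cebpa, which restrains hepatocyte division and drives metabolic genes, read 13.20, 12.83 and 13.03 in untreated liver, 12.64 to 13.12 in the sham range and 11.77, 11.75 and 11.80 at 38 h. It fell by 1.25 ± 0.17 (limma adjusted p = 5.67e-06), below all untreated and sham arrays. Cebpb, its relative that acts in regeneration, was at 0.22 ± 0.12 without passing and stood 0.95 ± 0.11 above the pooled sham. The factor genes Onecut1 and Nr5a2 fell by 1.25 ± 0.30 and 1.05 ± 0.20. Foxa1 fell by 1.03 ± 0.27 against untreated liver, but PH replicates 1 and 2 lay within its sham range of 9.48 to 10.21 and replicate 3 just above it (10.004, 9.95 and 10.27). Hnf4a, the master regulator of hepatocyte genes, fell by 0.48 ± 0.08 (limma adjusted p = 8.09e-05), and its -0.10 ± 0.07 against the pooled sham did not pass. The factor gene Cux2 was the 1 member that rose (0.61 ± 0.17), a call lost without PH replicate 3 (change 0.44). Of this list, 3 were higher (Cebpb, Cebpd and Nr1i2) and 5 lower (Cebpa, Foxa2, Onecut1, Nr5a2 and Srebf1) when the pooled sham was the control, at a median of -0.10. The call was lost against the pooled sham for Foxa1 and Cux2.

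**Figure D3:**
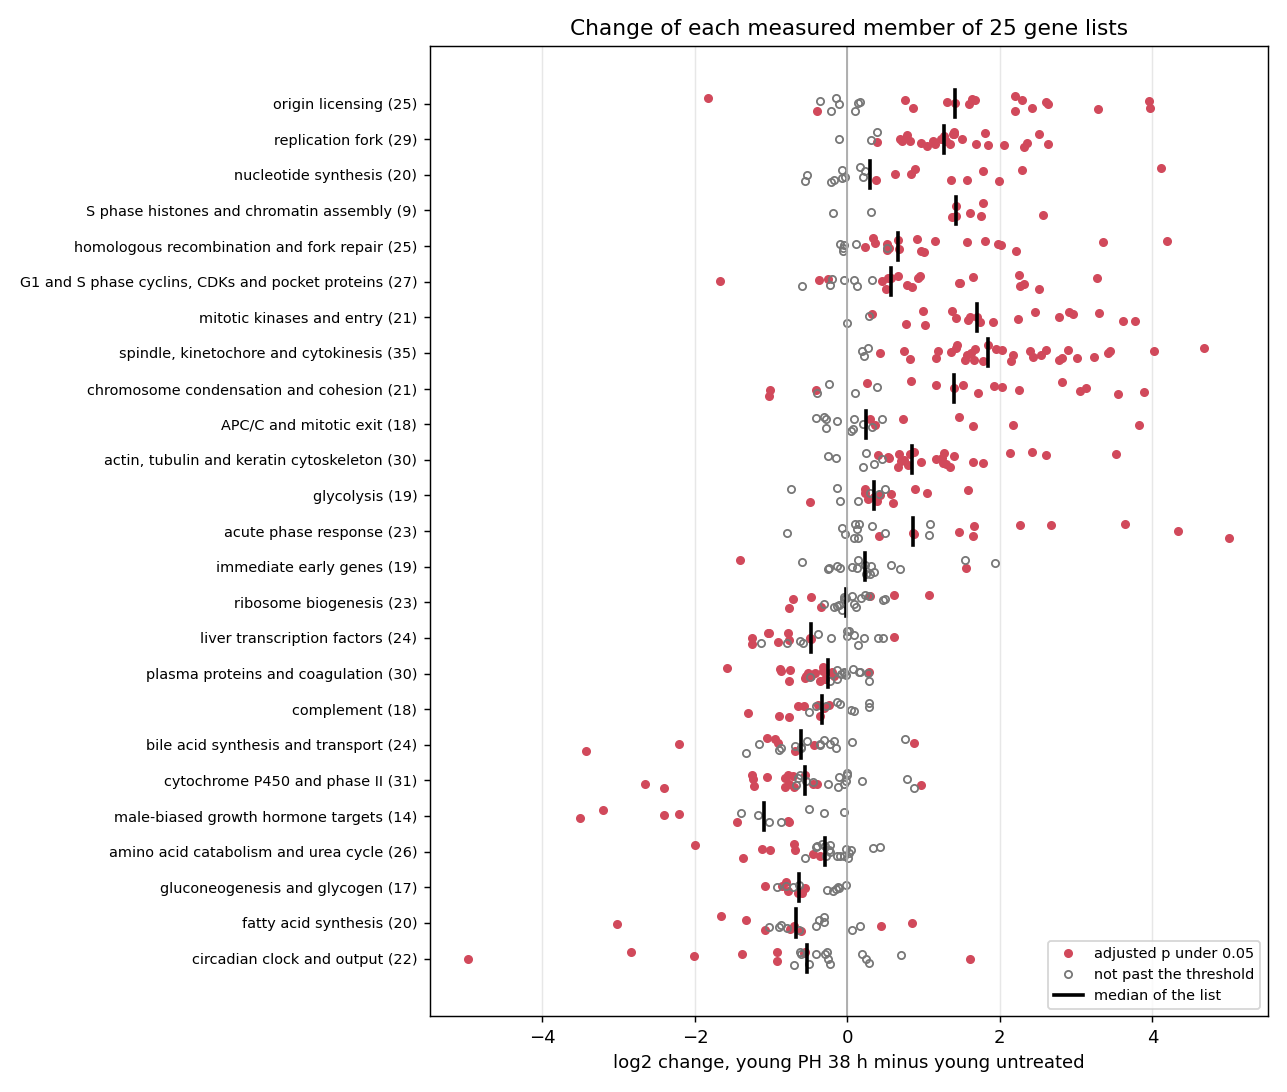
Log2 change from untreated liver to 38 h after PH (horizontal axis) of every measured member of 25 gene lists, filled where the adjusted p was under 0.05, with the median of each list as a bar and the number of members in brackets. Replication, mitosis and cytoskeleton medians lie right of 0, and those of liver function lie left of it, down to -1.10 for male-biased genes.

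Acute phase genes had some of the largest rises, and the sham livers had them too. In the acute phase response list 11 of 23 measured members rose and 0 fell (0 at an unadjusted p under 0.05), with a median change of 0.86. Lipocalin 2 (Lcn2), an iron-scavenging defence protein, read 9.21, 10.38 and 8.31 in untreated liver and 14.36, 14.33 and 14.25 at 38 h, the largest rise of all genes past the threshold at 5.01 ± 0.46 (32.2-fold, limma adjusted p = 7.88e-08). The sham range of 12.56 to 14.38 held all 3 PH arrays, and the difference from the pooled sham was 0.87 ± 0.46. Serum amyloid A2 (Saa2) rose by 4.34 ± 0.51 against untreated liver, from 9.96, 11.61 and 9.52 to 14.64, 14.71 and 14.77, and was at 0.14 ± 0.45 against the pooled sham. Saa1 rose by 2.68 ± 0.36 and Orm2, an orosomucoid gene, by 3.65 ± 0.65, with 0.04 ± 0.31 and 0.02 ± 0.56 against the pooled sham. Genes of near-identical copies (the Saa and Orm families) may share signal between their probes. With the pooled sham as control 0 of 23 members were higher (3 at an unadjusted p under 0.05) and 1 lower (Itih4) in limma.

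Many genes of other proteins that the liver secretes fell. In the plasma proteins and coagulation list 1 of 30 measured members rose (Hpx 0.28) and 16 fell, with a median change of -0.26. The clotting factor gene F5 fell by 0.87 ± 0.19, from 13.09, 12.85 and 13.15 to 12.08, 12.05 and 12.34, and F7 by 0.76 ± 0.25, a call lost without untreated replicates 1 or 3 or PH replicates 1 or 2 (changes from -0.76 to -0.69) and with PH replicates 1 and 2 averaged or quantile normalization repeated. F11 fell by 0.88 ± 0.29 against untreated liver, but its PH arrays (10.29, 10.29 and 10.06) lay near its sham range (9.95 to 10.28). The corticosteroid carrier gene Serpina6 read 12.39, 12.001 and 11.86 in untreated liver and 9.84, 9.80 and 11.86 at 38 h. The fall rested on replicates 1 and 2, and the call was lost without untreated replicate 1 or PH replicates 1 or 2 (changes from -1.43 to -1.24) and with PH replicates 1 and 2 averaged. In the complement list 0 of 18 measured members rose (0 at an unadjusted p under 0.05) and 9 fell, with a median change of -0.33. The terminal complement gene C8b fell by 1.31 ± 0.25 and C2 by 0.89 ± 0.10 (limma adjusted p = 6.28e-07), and both also fell against the pooled sham (-1.06 ± 0.21 and -0.60 ± 0.10). The complement protease genes Masp1 and C1s1 fell by 0.76 ± 0.21 and 0.65 ± 0.22. Among interferon response genes 0 of 27 measured members rose (1 at an unadjusted p under 0.05) and 5 fell (Mx2 -0.36), with a median change of -0.16. The interferon-induced GTPase genes Iigp1 and Irgm1 fell by 1.03 ± 0.19 and 0.82 ± 0.23, and the signalling genes Irf9 and Stat2 by 0.85 ± 0.21 and 0.84 ± 0.19. F11 lost its call without untreated replicates 1 or 3 or PH replicate 3 (changes from -0.85 to -0.80) and with quantile normalization repeated. The call of C1s1 was lost without untreated replicates 1 or 3 or PH replicates 1 or 2 (changes from -0.63 to -0.58) and with PH replicates 1 and 2 averaged or quantile normalization repeated. No pass against the pooled sham was seen for F5, F11, Masp1, C1s1 or Hpx.

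Some bile acid genes fell. In the bile acid synthesis and transport list 1 of 24 measured members rose (Slc51b 0.88) and 7 fell, with a median change of -0.61. Cyp8b1, the sterol hydroxylase that sets the share of cholic acid, read 13.16, 13.07 and 13.12 in untreated liver, 11.83 to 13.44 in the sham range and 9.55, 9.49 and 10.03 at 38 h. All PH arrays lay below the rest, and the change was -3.43 ± 0.61 (limma adjusted p = 0.000140). Cyp7a1, the rate-limiting enzyme of bile acid synthesis, read 11.07, 10.15 and 10.28 in untreated liver and 9.20, 9.05 and 9.27 at 38 h. Its -1.33 ± 0.65 did not pass, although the PH arrays lay below the untreated ones, and the sham range of 8.77 to 11.38 overlapped both. The other probe set of Cyp7a1 fell past the threshold (-2.38 ± 0.68). Cyp27a1, which starts the alternative pathway, fell by 1.06 ± 0.11 (limma adjusted p = 4.67e-07) and Baat, which conjugates bile acids to amino acids, by 0.95 ± 0.13. The uptake transporter gene Slco1a1 fell by 2.21 ± 0.55, with PH arrays at 10.48, 10.28 and 11.70. Against the pooled sham the threshold was missed by Slc51b.

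Among drug-metabolising enzyme genes falls outnumbered rises. In the cytochrome P450 and phase II list 1 of 31 measured members rose (Sult1a1 0.97) and 15 fell, with a median change of -0.56. The sulfotransferase gene Sult2a8 read 13.57, 13.44 and 13.54 in untreated liver and 10.16, 10.23 and 12.20 at 38 h, with replicate 3 far above the other two. Its change of -2.65 ± 0.80 was lost without PH replicates 1 or 2 (changes from -2.33 to -2.30) and with PH replicates 1 and 2 averaged. Cyp1a2, which metabolises caffeine, fell by 1.25 ± 0.36, a call lost without PH replicates 1 or 2 (changes from -1.07 to -0.99) and with PH replicates 1 and 2 averaged. Cyp4f14 fell by 1.23 ± 0.38, a call lost without PH replicates 1 or 2 (changes from -1.10 to -1.09) and with PH replicates 1 and 2 averaged. Ugt2b38 fell by 2.41 ± 0.60 against untreated liver and was at -0.11 ± 0.52 against the pooled sham. Closely related genes of the Cyp2 and Ugt2b families may share signal between their probes. In this list, 3 were higher (Cyp2a12, Fmo5 and Sult1a1) and 9 lower against the pooled sham (median -0.39). When PH replicates 1 and 2 were averaged, 9 fell in this list. With the pooled sham as control Cyp1a2 and Cyp4f14 did not pass.

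Genes that growth hormone pulses keep high in males were the list with the lowest median. In the male-biased growth hormone targets list 0 of 14 measured members rose (0 at an unadjusted p under 0.05) and 7 fell, with a median change of -1.10. Mup10, a major urinary protein gene of a family of near-identical copies, read 11.93, 12.06 and 12.18 in untreated liver and 7.82, 7.80 and 10.04 at 38 h. It fell by 3.50 ± 0.51 (limma adjusted p = 1.45e-05), and the fall without PH replicate 3 was larger than without replicate 1 or 2 (-4.25 without replicate 3, -3.13 without replicate 1 and -3.12 without replicate 2). The steroid dehydrogenase gene Hsd3b5 read 13.62, 13.47 and 13.64 in untreated liver and 9.64, 9.59 and 11.87 at 38 h, and its change of -3.21 ± 1.22 (limma adjusted p = 0.0460) was lost without untreated replicates 1, 2 or 3 or PH replicates 1 or 2 (changes from -3.27 to -2.82) and with PH replicates 1 and 2 averaged. The list scored -1.65, -1.67 and -0.89 in PH replicates 1, 2 and 3 and from -0.64 to -0.37 in the sham arrays, all below the untreated arrays. Against the pooled sham 0 of 14 members were higher (1 at an unadjusted p under 0.05) and 4 lower (Mup10, Cyp2d9, Slco1a1 and Susd4). Of the genes higher in females, 3 of 14 measured members rose (Cyp3a44 0.39 and Cux2 0.61) and 0 fell (0 at an unadjusted p under 0.05), with a median change of 0.09. The acyl-CoA thioesterase gene Acot3 rose by 1.50 ± 0.39. Beside the shams, 1 was higher (Cyp3a44) and 0 lower (0 at an unadjusted p under 0.05) in the female-biased growth hormone targets list (median 0.17 against the pooled sham). Cyp3a44 lost its call without untreated replicates 1 or 3 or PH replicate 3 (changes from 0.29 to 0.38). The call of Cux2 was lost without PH replicate 3 (change 0.44). Of the genes named here, Hsd3b5, Acot3 and Cux2 did not pass against the pooled sham.

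**Figure D4:**
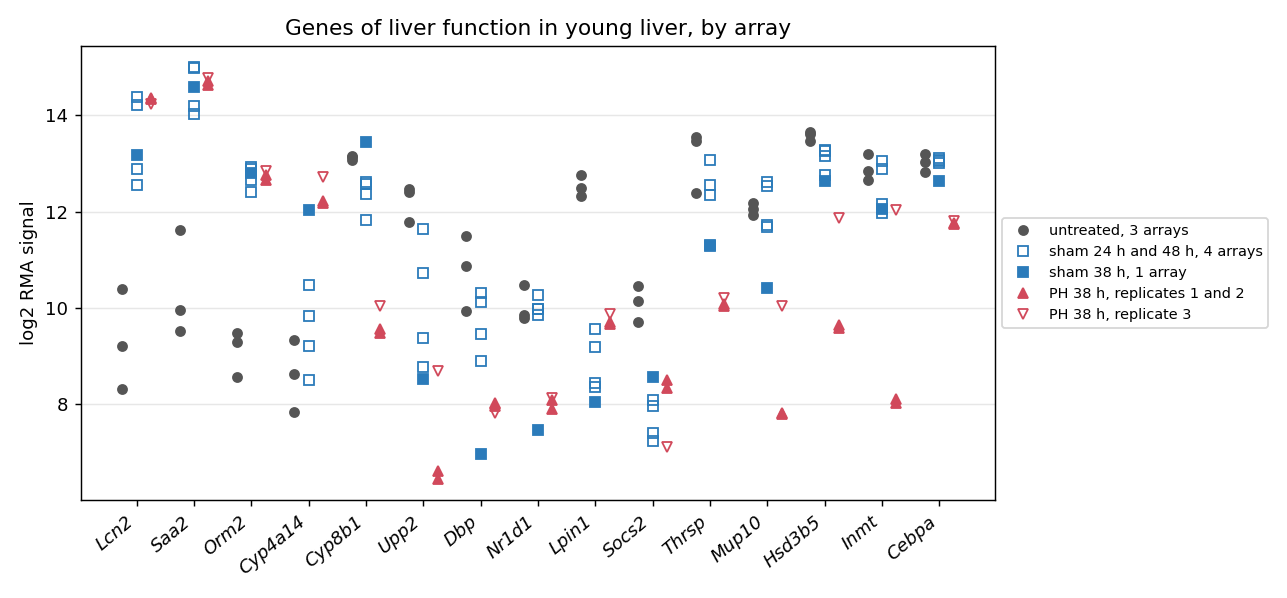
Log2 RMA signal (vertical axis) of 15 genes of liver function in each array of young liver, with symbols as in the plot of cell cycle genes. Sham and PH arrays share the high Lcn2, Saa2 and Orm2 levels and the low Socs2 levels, Cyp8b1 and Cebpa are lower after PH than in any untreated or sham array, and PH replicate 3 stands apart for Inmt, Mup10 and Hsd3b5.

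Part of the lipid synthesis genes fell. In the fatty acid synthesis list 2 of 20 measured members rose (Pnpla3 0.44 and Tkfc 0.85) and 7 fell, with a median change of -0.67. Thrsp, a regulator of lipogenesis, read 13.47, 13.55 and 12.38 in untreated liver and 10.08, 10.04 and 10.20 at 38 h, a change of -3.02 ± 0.70 (limma adjusted p = 0.00195) that left the PH arrays below the sham range of 11.28 to 13.07. Acetyl-CoA carboxylase 2 (Acacb) fell by 1.34 ± 0.25 and Mlxipl, the carbohydrate response factor ChREBP, by 1.07 ± 0.18, while Scd1 (-0.90 ± 0.36) did not pass. A dimmer probe set of Scd1 did (-3.17 ± 0.70). The acetyl-CoA synthetase gene Acss2 fell by 1.65 ± 0.51. In the cholesterol synthesis list 0 of 18 measured members rose (0 at an unadjusted p under 0.05) and 2 fell (Sc5d -1.28), with a median change of -0.46. The sterol reductase gene Tm7sf2 fell by 0.90 ± 0.11 (limma adjusted p = 3.02e-06), with PH arrays at 10.88, 10.97 and 10.76. The score of this list was -0.02, -0.01 and -1.27 in PH replicates 1, 2 and 3. Replicates 1 and 2 were thus at the untreated level and replicate 3 was below it. Sham scores ran from 0.12 to 0.67, above all 3 PH arrays, and the median change against the pooled sham was -0.83. The scores were -1.02, -0.89 and -0.70 at 24 h after PH and -0.24, -0.39 and -0.47 at 48 h. Lpin1, which acts in triglyceride synthesis and fat oxidation, fell by 2.78 ± 0.32 against untreated liver (limma adjusted p = 1.00e-06) but rose by 1.03 ± 0.33 against the pooled sham. Its untreated arrays read 12.76, 12.49 and 12.32, its sham range was 8.04 to 9.57 and its PH arrays read 9.71, 9.66 and 9.86, between the other groups. Acss2 lost its call without untreated replicate 1 (change -1.58). The call of Sc5d was lost with its probe sets averaged or its set of largest variance. When set against the pooled sham, Pnpla3 missed the threshold.

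Genes of fat use and transport passed in both directions, in smaller shares than over all genes (15.2% rose and 16.5% fell). In the fatty acid oxidation and ketogenesis list 3 of 21 measured members rose (Acadl 0.31) and 2 fell (Acaa1b -0.67 and Ppara -0.76), with a median change of 0.05. Cyp4a14, a fatty acid hydroxylase and target of the receptor PPAR alpha, read 9.33, 7.84 and 8.62 in untreated liver and 12.18, 12.23 and 12.72 at 38 h. It rose by 3.78 ± 0.87 (limma adjusted p = 0.00172), but the single 38 h sham array was at 12.03, close to the PH arrays, and the other sham arrays were lower. The thioesterase gene Acot1, of fat oxidation, rose by 1.27 ± 0.34, a call lost without PH replicate 3 (change 0.89). In the list of lipid droplets and lipoproteins 3 of 23 measured members rose (Cd36 0.98 and Fabp4 1.71) and 2 fell (Lpin1 -2.78), with a median change of 0.05. The apolipoprotein gene Apoa4 rose by 2.45 ± 0.20 (limma adjusted p = 2.09e-08), from 11.72, 11.90 and 11.64 to 14.40, 14.27 and 13.93, with the sham range at 12.06 to 13.31 between the groups. The cholesterol exporter gene Abca1 fell by 1.12 ± 0.17. Set against the pooled sham, 3 were higher (Acadl, Cyp4a14 and Acot1) and 0 lower (0 at an unadjusted p under 0.05) in the fatty acid oxidation and ketogenesis list, with a median of 0.25. Of the lipid droplets and lipoproteins list, 7 were higher and 1 lower (Abca1) when the pooled sham was the control, at a median of 0.36. Averaging PH replicates 1 and 2 changed the count for the lipid droplets and lipoproteins list: 1 rose (Apoa4). Acaa1b lost its call without untreated replicate 1 (change -0.61). The call of Ppara was lost without untreated replicates 1 or 3 or PH replicates 1 or 2 (changes from -0.70 to -0.66) and with PH replicates 1 and 2 averaged, array medians centred, quantile normalization repeated or its set of largest variance. Fabp4 lost its call without untreated replicates 1, 2 or 3 or PH replicates 1 or 2 (changes from 1.47 to 1.84) and with PH replicates 1 and 2 averaged, its probe sets averaged or a trended prior. The call was lost against the pooled sham for Acaa1b and Ppara.

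No measured gene of amino acid use or of gluconeogenesis rose. In the amino acid catabolism and urea cycle list 0 of 26 measured members rose (1 at an unadjusted p under 0.05) and 8 fell, with a median change of -0.29. Csad, which makes taurine, fell by 2.00 ± 0.43 (limma adjusted p = 0.000922), from 11.79, 10.80 and 11.06 to 9.31, 9.66 and 8.68, Agxt, a glyoxylate detoxifying enzyme, by 1.37 ± 0.22 and the urea cycle gene Otc by 1.11 ± 0.17. In gluconeogenesis and glycogen metabolism 0 of 17 measured members rose (0 at an unadjusted p under 0.05) and 7 fell, with a median change of -0.63. The insulin receptor gene Insr fell by 1.08 ± 0.16 (limma adjusted p = 1.94e-05), and the insulin receptor substrate gene Irs1 by 0.86 ± 0.25, a call lost without untreated replicate 3 or PH replicates 1 or 2 (changes from -0.75 to -0.66) and with PH replicates 1 and 2 averaged. The glycogen phosphorylase gene Pygl fell by 0.78 ± 0.25, a call lost without untreated replicates 1 or 3 or PH replicates 1 or 2 (changes from -0.77 to -0.70) and with PH replicates 1 and 2 averaged. The liver pyruvate kinase gene Pklr fell by 0.80 ± 0.22. Among periportal zone markers 0 of 13 measured members rose (1 at an unadjusted p under 0.05) and 3 fell (Cyp2f2 -0.82 and Hal -1.01), with a median change of -0.19. Among pericentral zone markers 1 of 18 measured members rose and 5 fell (Cyp2e1 -0.39, Cyp1a2 -1.25, Rnf43 -0.71, Znrf3 -0.48 and Cyp27a1 -1.06), with a median change of -0.44. Pigr, which carries immunoglobulin A into bile, fell by 1.05 ± 0.29, and the amino acid transporter gene Slc1a4 rose by 1.76 ± 0.31. In the gluconeogenesis and glycogen list, 0 were higher (0 at an unadjusted p under 0.05) and 2 lower (Khk and Insr) against the pooled sham (median -0.21). In the gluconeogenesis and glycogen list, 3 fell (Khk, Pklr and Insr) with PH replicates 1 and 2 averaged. When PH replicates 1 and 2 were averaged, 1 fell (Pigr) in the periportal markers list. Averaging PH replicates 1 and 2 changed the count for the pericentral markers list: 3 fell (Cyp2e1, Rnf43 and Cyp27a1). The call of Pklr was lost without untreated replicate 1 (change -0.64). Cyp2f2 lost its call without untreated replicates 1, 2 or 3 or PH replicates 1, 2 or 3 (changes from -0.86 to -0.78) and with PH replicates 1 and 2 averaged, array medians centred or quantile normalization repeated. The call of Hal was lost without untreated replicates 1 or 3 or PH replicates 1 or 2 (changes from -0.97 to -0.94) and with PH replicates 1 and 2 averaged. Cyp1a2 lost its call without PH replicates 1 or 2 (changes from -1.07 to -0.99) and with PH replicates 1 and 2 averaged. The call of Rnf43 was lost without untreated replicate 1 or PH replicate 1 (changes from -0.67 to -0.53). No pass against the pooled sham was seen for Irs1, Pygl, Pklr, Cyp2f2, Cyp1a2 or Znrf3.

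Several genes of the clock and its output fell against untreated liver. In the circadian clock and output list 1 of 22 measured members rose and 8 fell, with a median change of -0.53. Upp2, a uridine phosphorylase with a daily rhythm, had the largest fall of all genes past the threshold. It read 12.41, 12.47 and 11.78 in untreated liver, 8.53 to 11.64 in the sham range and 6.43, 6.61 and 8.69 at 38 h. The change was -4.98 ± 0.68 (limma adjusted p = 6.68e-06), PH replicate 3 lay within the sham range, and the difference from the pooled sham was -2.56 ± 0.69. Dbp, an output factor of the clock, read 11.49, 10.87 and 9.93 in untreated liver and 8.03, 7.95 and 7.81 at 38 h, a change of -2.83 ± 0.70. The 38 h sham array read 6.97 for Dbp, below both groups. Nr1d1 (REV-ERB alpha), a repressor in the clock, fell by 2.01 ± 0.27, from 10.48, 9.79 and 9.85 to 8.08, 7.89 and 8.13, and its 38 h sham array read 7.47. The other sham arrays, taken at 24 h and 48 h, read 8.89 to 10.31 for Dbp and 9.85 to 10.26 for Nr1d1, all above the 38 h sham array. Arntl, an activator of the clock, was at -0.41 ± 0.36 without passing. Wee1, a clock-driven inhibitor of Cdk1, was the 1 member that rose (1.61 ± 0.36). Hours after surgery and hours of the day were not separated by the design. Beside the shams, 4 were higher (Per1, Cry1, Usp2 and Wee1) and 3 lower (Nr1d1, Hlf and Upp2) in this list (median -0.03 against the pooled sham). The pooled sham holds only 1 array taken at 38 h, so for clock genes it mixes collection times. Against that 38 h sham array the median change of the list was 0.17, and Nr1d1 was higher in all 3 PH arrays. Against the pooled sham the threshold was missed by Dbp.

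Among groups of general cell upkeep, the unfolded protein response list had falls and no rises against untreated liver in the probe sets used. In the ribosome biogenesis list 3 of 23 measured members rose (Nop10 0.29) and 4 fell (Rrs1 -0.48 and Polr1a -0.34), with a median change of -0.02. The nucleolar genes Nhp2 (1.07 ± 0.26) and Nop56 (0.62 ± 0.14) rose, and Polr1b (-0.77 ± 0.11), a subunit of RNA polymerase I, and Pes1 (-0.71 ± 0.19) fell. For Polr1b the PH arrays (8.24, 7.94 and 7.95) overlapped the sham range (7.95 to 8.28), and for Pes1 (8.02, 7.91 and 7.86) they lay within it (7.49 to 8.16). In the heat shock list 0 of 18 measured members rose (0 at an unadjusted p under 0.05) and 0 fell (1 at an unadjusted p under 0.05), with a median change of 0.01. Other probe sets fell for Hspa9 (-0.44 ± 0.11 and -0.52 ± 0.17) and Hsph1 (-1.27 ± 0.43). The abundant chaperone genes Hspa8 and Hspd1 were at -0.16 ± 0.14 and -0.10 ± 0.08. In the unfolded protein response list 0 of 19 measured members rose (3 at an unadjusted p under 0.05) and 6 fell, with a median change of -0.39. Other probe sets rose for Asns (1.52 ± 0.56) and Atf4 (0.37 ± 0.11) and fell for Canx, Dnajc3 and Edem1, where the set used did not pass. Sel1l, part of the degradation machinery of the endoplasmic reticulum, fell by 1.04 ± 0.33, a call lost without untreated replicate 3 or PH replicate 2 (changes from -0.99 to -0.98). Trib3 fell by 0.95 ± 0.26 and Herpud1 by 0.90 ± 0.25. The secretory factor gene Xbp1 fell by 0.80 ± 0.13. Of proteasome genes 6 of 24 measured members rose and 0 fell (1 at an unadjusted p under 0.05), with a median change of 0.12. The subunit gene Psmb3 rose by 0.92 ± 0.16 against untreated liver and was at -0.02 ± 0.14 against the pooled sham. Psmc4 rose by 0.47 ± 0.15, Psmb6 by 0.37 ± 0.08 and Psmb7 by 0.36 ± 0.10. In the respiratory chain 5 of 26 measured members rose (Ndufa2 0.33, Ndufa5 0.37, Cycs 0.36, Cox7a2 0.20 and Atp5o 0.28) and 6 fell, with a median change of -0.12. The largest of these was the fall of Sdha, a succinate dehydrogenase subunit, by 0.56 ± 0.13. Ndufa9, of complex I, fell by 0.42 ± 0.12. Set against the pooled sham, 10 were higher and 0 lower (1 at an unadjusted p under 0.05) in the ribosome biogenesis list, with a median of 0.39. Of the heat shock and chaperones list, 9 were higher and 0 lower (0 at an unadjusted p under 0.05) when the pooled sham was the control, at a median of 0.40. In the unfolded protein response list, 0 were higher (1 at an unadjusted p under 0.05) and 1 lower (Xbp1) against the pooled sham (median -0.18). Beside the shams, 4 were higher (Cycs, Cox5a, Cox7a2 and Atp5o) and 0 lower (0 at an unadjusted p under 0.05) in the mitochondrial respiratory chain list (median 0.01 against the pooled sham). Psmc4 lost its call without untreated replicate 3 or PH replicate 2 (changes from 0.42 to 0.45). The call of Sdha was lost with its set of largest variance. Ndufa5 lost its call without untreated replicates 1 or 3 or PH replicate 3 (changes from 0.23 to 0.34) and with its probe sets averaged, its set of largest variance or only the 6 arrays compared. The call of Cycs was lost without untreated replicate 1 or PH replicate 3 (changes from 0.29 to 0.32). With the pooled sham as control Polr1b, Pes1, Sel1l, Trib3, Herpud1, Psmb6, Sdha, Ndufa9, Nop10, Polr1a, Ndufa2 and Ndufa5 did not pass.

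Antioxidant genes that rose were higher in replicates 1 and 2 than in replicate 3. In the antioxidant and NRF2 list 4 of 16 measured members rose (Gstm2 1.27 and Fth1 0.18) and 0 fell (0 at an unadjusted p under 0.05), with a median change of 0.15. With replicates 1 and 2 averaged 0 passed in limma (3 at an unadjusted p under 0.05). The haem oxygenase gene Hmox1 read 9.05, 9.94 and 8.69 in untreated liver and 11.21, 11.28 and 9.15 at 38 h. The groups overlapped, and the rise of 1.32 ± 0.46 was lost without untreated replicates 1 or 3 or PH replicates 1 or 2 (changes from 0.95 to 1.23) and with PH replicates 1 and 2 averaged or only the 6 arrays compared. The glutathione transferase gene Gstm3 rose by 1.50 ± 0.50, a call lost without untreated replicates 1 or 3 or PH replicates 1 or 2 (changes from 1.28 to 1.48) and with PH replicates 1 and 2 averaged. Among targets of Hippo and TGF beta signalling 1 of 17 measured members rose and 1 fell, with a median change of 0.03. Id1, an inhibitor of differentiation factors, rose by 1.80 ± 0.54, a call lost without untreated replicate 3 or PH replicate 2 (changes from 1.63 to 1.66). The angiomotin gene Amotl1 fell by 0.58 ± 0.10. Set against the pooled sham, 4 were higher (Ccn2, Ccn1, Ajuba and Id1) and 1 lower (Amotl1) in the Hippo and TGF beta targets list, with a median of 0.11. Gstm2 lost its call without untreated replicates 1 or 3 or PH replicates 1 or 2 (changes from 1.14 to 1.22) and with PH replicates 1 and 2 averaged. The call of Fth1 was lost without untreated replicates 1 or 3 or PH replicates 1 or 2 (changes from 0.16 to 0.17) and with PH replicates 1 and 2 averaged, quantile normalization repeated, its set of largest variance or only the 6 arrays compared.

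Some markers of stellate cells and matrix rose. In the stellate cell and matrix markers list 7 of 16 measured members rose and 1 fell (Reln -1.01), with a median change of 0.59. With replicates 1 and 2 averaged 2 rose (Sparc and Timp1). Sparc, a matrix glycoprotein, read 9.92, 10.19 and 10.08 in untreated liver, 10.29 to 10.89 in the sham range and 11.58, 11.80 and 11.41 at 38 h. It rose by 1.54 ± 0.23 (limma adjusted p = 2.00e-05) with no overlap between PH and the other arrays. The protease inhibitor gene Timp1 rose by 1.81 ± 0.32, with PH replicate 3 (7.94) inside the sham range (7.21 to 7.96). The fibrillar collagen gene Col1a1 rose by 1.76 ± 0.60, a call lost without untreated replicates 1 or 3 or PH replicates 1 or 2 (changes from 1.61 to 1.80) and with PH replicates 1 and 2 averaged. Col3a1 rose by 1.92 ± 0.62, a call lost without untreated replicates 1 or 2 or PH replicates 1 or 2 (changes from 1.73 to 1.91) and with PH replicates 1 and 2 averaged. In the Kupffer cell and macrophage list 3 of 13 measured members rose (Cd68 1.53 and Ccr2 0.67) and 1 fell, with a median change of 0.33. The scavenger receptor gene Marco rose by 1.98 ± 0.58, a call lost without PH replicate 2 (change 1.80), while Cd163, a haemoglobin scavenger receptor, fell by 0.99 ± 0.24, to 8.23, 8.11 and 7.64, beside a sham range of 7.47 to 8.11. Of the stellate cell and matrix markers list, 4 were higher (Col4a1, Col4a2, Sparc and Timp1) and 0 lower (2 at an unadjusted p under 0.05) when the pooled sham was the control, at a median of 0.58. In the Kupffer cell and macrophage markers list, 1 rose (Marco) with PH replicates 1 and 2 averaged. Cd68 lost its call without untreated replicate 3 or PH replicates 1 or 2 (changes from 1.27 to 1.41) and with PH replicates 1 and 2 averaged. The call of Ccr2 was lost without untreated replicate 1 or PH replicates 1 or 2 (changes from 0.48 to 0.66) and with PH replicates 1 and 2 averaged, its probe sets averaged or its set of largest variance. Of the genes named here, Col1a1, Col3a1, Cd163, Reln and Ccr2 did not pass against the pooled sham.

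Of the neutrophil markers 2 of 9 measured members rose and 0 fell (0 at an unadjusted p under 0.05), with a median change of 0.18. With replicates 1 and 2 averaged 0 rose in limma (2 at an unadjusted p under 0.05). S100a8, a calgranulin, read 6.93, 8.13 and 6.22 in untreated liver and 10.18, 10.51 and 7.56 at 38 h, so replicate 3 lay within the untreated range. The rise of 2.33 ± 0.75 was lost without untreated replicates 1 or 3 or PH replicates 1 or 2 (changes from 1.78 to 2.25) and with PH replicates 1 and 2 averaged. Its partner S100a9 rose by 2.28 ± 0.69, with PH arrays at 10.68, 10.83 and 7.97, a call lost without untreated replicates 1 or 3 or PH replicates 1 or 2 (changes from 1.77 to 2.08) and with PH replicates 1 and 2 averaged. The other 7 markers, among them the granule genes Mpo, Elane, Camp and Ltf, did not pass. The whole neutrophil list scored -0.13, 0.33 and -0.20 in untreated liver, 0.85, 0.87 and 0.13 in PH replicates 1, 2 and 3 and from 0.19 to 0.46 in the sham arrays, and the macrophage list scored 0.58, 0.55 and -0.10 in those PH arrays. Hmox1, Anxa2, Pkm and Fos were highest in the same replicates 1 and 2. The part of neutrophils and macrophages in these values was not tested. When set against the pooled sham, S100a9 missed the threshold.

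Among endothelial markers 0 of 14 measured members rose (1 at an unadjusted p under 0.05) and 3 fell (Stab2 -0.72), with a median change of -0.23. Oit3 (-0.77 ± 0.20) and the receptor gene Kdr (-0.60 ± 0.17), which binds vascular endothelial growth factor, fell against untreated liver, and neither passed against the pooled sham. In the bile duct list 1 of 8 measured members rose and 0 fell (0 at an unadjusted p under 0.05), with a median change of 0.38. Epcam, an adhesion molecule, rose by 0.45 ± 0.08, and its PH arrays (10.28, 10.31 and 10.18) lay within the sham range (10.17 to 10.35). Of hepatocyte markers 0 of 9 measured members rose (0 at an unadjusted p under 0.05) and 4 fell (Serpina1c -0.20, Hnf4a -0.48 and Tat -0.36), with a median change of -0.18. Transthyretin (Ttr), a thyroid hormone carrier, fell by 0.18 ± 0.05, a call lost without PH replicate 2 (change -0.17) and with array medians centred or only the 6 arrays compared, and the fetal liver gene Afp rose by 0.77 ± 0.20, from 6.95, 6.89 and 6.78 to 7.79, 7.78 and 7.37. In the T and NK cell list 2 of 9 measured members rose (Gzma 0.28 and Gzmb 0.46) and 1 fell, with a median change of -0.06. The call for Cd4 (-0.38 ± 0.10) has no settled direction, as its other probe set rose (0.88 ± 0.13). Among B cell markers 0 of 6 measured members rose (0 at an unadjusted p under 0.05) and 0 fell (2 at an unadjusted p under 0.05), with a median change of -0.28. The brightest of these, Blnk and Jchain, were at 0.19 ± 0.25 and -0.30 ± 0.58. Among erythroid markers 0 of 5 measured members rose (1 at an unadjusted p under 0.05) and 1 fell, with a median change of 0.09. Alas2, an enzyme of haem synthesis, fell by 0.98 ± 0.24, and the alpha globin gene Hba-a1 was at 0.28 ± 0.11 without passing. The adipose list was split between Fabp4, which rose by 1.71 ± 0.65, a call lost without untreated replicates 1, 2 or 3 or PH replicates 1 or 2 (changes from 1.47 to 1.84) and with PH replicates 1 and 2 averaged, its probe sets averaged or a trended prior, and Car3, which fell by 1.73 ± 0.32. In the endothelial cell markers list, 0 were higher (3 at an unadjusted p under 0.05) and 0 lower (1 at an unadjusted p under 0.05) against the pooled sham (median 0.15). Beside the shams, 0 were higher (0 at an unadjusted p under 0.05) and 1 lower (Fgb) in the hepatocyte markers list (median -0.04 against the pooled sham). Set against the pooled sham, 0 were higher (0 at an unadjusted p under 0.05) and 0 lower (2 at an unadjusted p under 0.05) in the T and NK cell markers list, with a median of -0.13. Kdr lost its call without PH replicate 2 (change -0.50). The call of Epcam was lost with its probe sets averaged or its set of largest variance. Cd4 lost its call without PH replicate 3 (change -0.25), and it passed in the opposite direction with its probe sets averaged or its set of largest variance. The call of Stab2 was lost without untreated replicates 1 or 3 or PH replicates 1, 2 or 3 (changes from -0.75 to -0.66) and with PH replicates 1 and 2 averaged, array medians centred or quantile normalization repeated. Serpina1c lost its call with only the 6 arrays compared. The call of Tat was lost without untreated replicates 1 or 2 or PH replicates 1 or 2 (changes from -0.38 to -0.28) and with PH replicates 1 and 2 averaged, array medians centred or quantile normalization repeated. Gzma lost its call without untreated replicates 1 or 2 or PH replicates 1 or 2 (changes from 0.24 to 0.27) and with PH replicates 1 and 2 averaged. The call of Gzmb was lost without untreated replicate 1 or PH replicates 2 or 3 (changes from 0.40 to 0.46). The call was lost against the pooled sham for Oit3, Kdr, Epcam, Ttr, Cd4, Stab2, Serpina1c, Hnf4a, Tat, Gzma and Gzmb.

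A few of the largest changes belong to no list above. D17H6S56E-5 rose by 4.87 ± 0.54, from 8.36, 8.04 and 8.11 to 12.96, 12.82 and 13.35, with the sham range at 7.95 to 8.70. Hmgb2, a chromatin protein of dividing cells, rose by 3.65 ± 0.36 (limma adjusted p = 1.39e-07). Ly6d, a surface antigen, read 7.32, 7.18 and 7.14 in untreated liver and 11.70, 11.75 and 9.61 at 38 h, a rise of 3.81 ± 0.52. Replicate 3 was the lowest PH array. Inmt, a methyltransferase of small amines, read 13.20, 12.84 and 12.65 in untreated liver, 11.98 to 13.05 in the sham range and 8.11, 8.03 and 12.02 at 38 h. Replicate 3 lay in the sham range and the other two far below it, so the change was -3.51 ± 0.76 over all arrays and -4.83 without replicate 3, -2.87 without replicate 1 and -2.83 without replicate 2. Ces1e, a carboxylesterase, fell by 2.68 ± 0.30 (limma adjusted p = 6.65e-07) and Arrdc3, an arrestin-related adaptor, by 2.60 ± 0.38, with PH arrays at 8.29, 8.37 and 8.35. The succinate receptor gene Sucnr1 fell by 2.53 ± 0.65, 9130409I23Rik fell by 2.79 ± 0.50 and Hectd2os fell by 2.72 ± 0.88, a call lost without untreated replicate 3 or PH replicates 2 or 3 (changes from -2.74 to -2.55). No pass against the pooled sham was seen for Hectd2os.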

How the data were processed

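Total RNA of liver was isolated with RNeasy and hybridised to Affymetrix moe430_2 arrays after biotin labelling, per the labels' protocols. The authors deposited log2 values normalized by RMA (robust multi-array average), per the submitters' processing notes. Neither its version nor the set of arrays it was run on was named. RMA brings arrays close to a common distribution of values, so changes are relative to the other genes of an array. The medians of the deposited arrays were not identical and ran from 7.18 to 7.30. Arrays have no read depth, and their number limits the precision.

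Of 45101 probe sets, 64 were controls, 9160 were unnamed in the platform annotation used here, 932 had several symbols and 34945 had 1. These gave 18193 genes, 9010 of them with more than 1 probe set, and the set with the highest mean signal was used. Groups came from the labels. The fit was limma with 14 group means over 35 arrays (21 residual and 3.29 prior degrees of freedom), with Benjamini-Hochberg adjustment over 18193 genes and a threshold of 0.05. The step was tested on simulated data. The members and lists were chosen with earlier results of these data known.

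Named were the 15 largest rises and falls whose arrays did not overlap, up to 4 members per list with the largest passing changes (the 2 brightest where none passed) and a panel, 196 genes in all. A gene that this rule selects is not reported here.

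Replicate numbers recur in both groups, so their pairing was checked. Deviations from the group means of same-numbered untreated and PH arrays correlated at -0.001, 0.181 and 0.116 over genes, so the numbers were not taken as pairs. Alternatives changed the probe set rule, filter, normalization, prior, array weights, arrays fitted, replicate block and control. Averaging PH replicates 1 and 2 was chosen after seeing the data. Promoters are RefSeq's. Versions were R 4.3.3, limma 3.58.1, Python 3.11.15, pandas 2.3.3 and matplotlib 3.10.9.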

Additional observations from a re-analysis of the deposited data

How the results depend on the processing

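For 38 h after PH against untreated liver, direction and side of the threshold were kept for most of the 196 named genes, of which 179 passed. With the pooled sham as control 45 kept their direction but lost their call and 11 changed sign, among them Hspd1, which had not passed, and with PH replicates 1 and 2 averaged 28 lost their call. Each single array left out cost from 7 to 38 calls among the named genes, and no sign changed there. Against the pooled sham the 11 read 1.29 for Dusp1, 0.14 for Socs2, 0.28 for Foxa1, 0.23 for Hspd1, 1.03 for Lpin1, 0.060 for F11, -0.022 for Psmb3, 0.0089 for Tat, 0.23 for Cd163, -0.0019 for Ccr2 and -0.22 for Gzma. Cd4 changed sign with the mean of its probe sets (0.25) and with the set of largest variance (0.88). The cause was not tested.

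Counts past the threshold in this comparison were 11482 probe sets with every set tested (4707 rose, 6775 fell), 3616 genes with genes below the median signal left out (1380 rose), which tests fewer genes, 8787 with array weights (4244 rose, 4543 fell) and 3344 against the pooled sham (1447 fell). With a replicate block the count was 5676 over all arrays and 6067 over the 6 arrays compared. Rises outnumbered falls with array medians centred (3529 rose, 2520 fell) and with quantile normalization repeated (3618 rose, 2198 fell), unlike in the values as deposited. With only the 17 young arrays in the fit 7241 genes passed (3279 rose, 3962 fell), and 4 more of the named genes did. Leaving out 1 array gave 4180 to 5481 genes, of which 1996 to 2651 rose and 2162 to 2830 fell.

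For 38 h PH against the 38 h sham array, fallen genes numbered 444 probe sets with every set tested, 114 without the dimmer genes, 535 after repeated quantile normalization and 174 with PH replicates 1 and 2 averaged. Array weights gave 3366 genes (2116 rose, 1250 fell), the 17 young arrays alone 2051 (1516 rose, 535 fell) and the arrays compared alone 426 (368 rose, 58 fell). Leaving out 1 array gave 893 to 981 genes, 716 to 734 of them risen and 177 to 247 fallen. These fits take the spread of the single 38 h sham array from the other groups.

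For the 38 h sham array against untreated liver, every set tested gave 7415 probe sets (3336 rose, 4079 fell), leaving out the dimmer genes 2098 genes (486 rose) and array weights 6750 (3067 rose, 3683 fell). Fallen genes were 1190 after quantile normalization and 3166 with the young arrays alone, and 1259 rose with the arrays compared alone. Leaving out 1 array gave 2860 to 4264 genes, with 1384 to 2021 risen and 1476 to 2243 fallen.

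From 24 h to 38 h after PH, 237 genes fell with the mean of probe sets, 272 with the set of largest variance, 233 with the arrays compared alone and 62 with PH replicates 1 and 2 averaged. Every set tested gave 1097 probe sets (581 rose, 516 fell), leaving out the dimmer genes 292 genes (171 rose), array weights 2467 (1248 rose, 1219 fell) and the young arrays 1056 (594 rose, 462 fell). With a replicate block over the 6 arrays 215 rose. Leaving out 1 array gave 234 to 423 genes, with 175 to 325 risen and 49 to 126 fallen.

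From 38 h to 48 h, every set tested gave 376 probe sets (311 rose, 65 fell), array weights 1671 genes (1171 rose, 500 fell), the young arrays 792 (602 rose, 190 fell), the arrays compared alone 35 (24 rose, 11 fell), the replicate block over these 31 (17 rose, 14 fell) and averaged PH replicates 41 (36 rose, 5 fell). After quantile normalization 110 rose. Leaving out 1 array gave 28 to 353 genes, with 25 to 272 risen and 3 to 81 fallen.

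The limits are few arrays, 1 sham array at 38 h, and PH replicates 1 and 2 that are closer to each other than any other pair. Array weights, whose estimation stopped before full convergence, raised every count. Over all arrays the replicate block moved no count by over 1.5 times, and of the calls of named genes 4 were lost. Array signal near background, among the dimmer genes, limits what a missing call there shows.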
